A study of Mus musculus with 28 samples.

Results

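The genes described here are known for building and maintaining cilia and the sperm tail: every gene of the array whose symbol starts with Dnah, Dnai, Dnal, Dnaaf, Rsph, Tekt, Cfap, Bbs or Ift followed by a number, together with Dnali1. The array held 76 such genes among 18193 genes with a symbol of their own. They were read by 121 probe sets, 31 of the genes had several, and each gene is represented by its probe set with the highest mean signal. The study hybridised RNA from the testes of adult male C57BL/6 mice to single-colour oligonucleotide arrays, to ask which testicular transcripts depend on GRTH. GRTH, encoded by Ddx25, is the gonadotropin-regulated testicular RNA helicase, a germ cell and Leydig cell protein that exports mRNAs and binds them on polysomes. The KO mice were GRTH null (GRTH-/-) and the WT mice carried the intact gene, and the labels name no further allele and no agent. Total testicular polysome RNA, taken by sucrose gradient, was measured on 3 arrays of KO and 3 of WT. Cells purified by centrifugal elutriation gave 4 arrays of KO and 4 of WT spermatocytes, 3 of KO and 3 of WT round spermatids, and 2 of KO and 2 of WT Leydig cells. Polysome RNA was also immunoprecipitated with a GRTH antibody (GRTH IP, 2 arrays) or with IgG (IgG IP, 2 arrays), both from WT testes. The labels do not tie replicate arrays to different animals, so every p-value here covers the spread among arrays only, and that spread may be technical.

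The axoneme is a ring of doublet microtubules around a central pair, and outer and inner dynein arms along the doublets make it bend. Heavy chains of the Dnah family are the motors of the arms, Dnal proteins are their light chains, Dnaaf proteins assemble the arms in the cytoplasm, and radial spokes of Rsph proteins link the doublets to the central pair. Tektins are filaments in the doublet wall, and Cfap proteins are a mixed set of axonemal and flagellar proteins. Intraflagellar transport (IFT) carries tubulin and other cargo along a growing cilium or flagellum in trains of IFT-B, outward, and IFT-A, on the return. The BBSome, built of Bbs proteins, links membrane cargo to these trains. In the testis many of these transcripts are made in spermatocytes, and the flagellum is assembled in spermatids.

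Signals are in arbitrary units after every array was scaled to a trimmed mean of 500, since 4 of the 6 total polysome arrays had been deposited at trimmed means of 29.75 to 167.8 and the other arrays at 500. Differences are log2 of signal plus 16, with the standard error (SE) of the limma fit, and the adjusted p is over all 9097 genes tested in a comparison. A gene is said to rise, fall or be called where its adjusted p is under 0.05. Whether groups of arrays overlap was read for members only, not over all genes, so it is a description and no test. Ddx25 was lower in KO in all 4 sources, by a log2 difference of -4.35 in total polysome, -2.26 in spermatocytes, -1.98 in round spermatids and -1.99 in Leydig cells. Where its probe set lies relative to the deleted part of the gene was not checked. Spermatocyte arrays 1 and 2 formed a close pair, as did arrays 3 and 4, with an SD of log2 differences of 0.122 to 0.138 within these pairs against 0.193 to 0.221 between arrays of different pairs. Arrays 1 and 2 of the round spermatids were also close, at 0.162 to 0.167 against 0.213 to 0.28. The free-text description of 4 arrays went against their title, and the titles were followed. These were WT total polysome arrays 1 and 2, KO total polysome array 1 and IgG IP array 1. All 12 elongating spermatid markers were lower in KO in each of the 4 sources, with median log2 differences of -2.75 in total polysome, -0.926 in spermatocytes, -0.704 in round spermatids and -0.586 in Leydig cells. Less RNA per cell and fewer cells of a type cannot be told apart in such bulk samples. Leydig cell arrays held germ cell transcripts: the summed signal of 12 elongating spermatid markers there was 128400 to 130800 in KO and 191500 to 193900 in WT, beside 59020 to 59820 in KO and 32030 to 32090 in WT for 6 Leydig cell markers.

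Dnah5, Dnah11, Dnah17, Rsph4a and Cfap47 were under the median level of all genes and were tested in no comparison. Dnah5, Dnah9 and Dnah11 are outer arm chains known from airway cilia, Dnah17 is one of the sperm tail, and Rsph4a is a spoke head protein of motile cilia. Bbs12 and Cfap20dc were left out of 5 comparisons, Rsph3a of 4 and Cfap410 of 1. The plot of all members on all arrays shows each gene's level relative to its own mean.

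**Figure D1:**
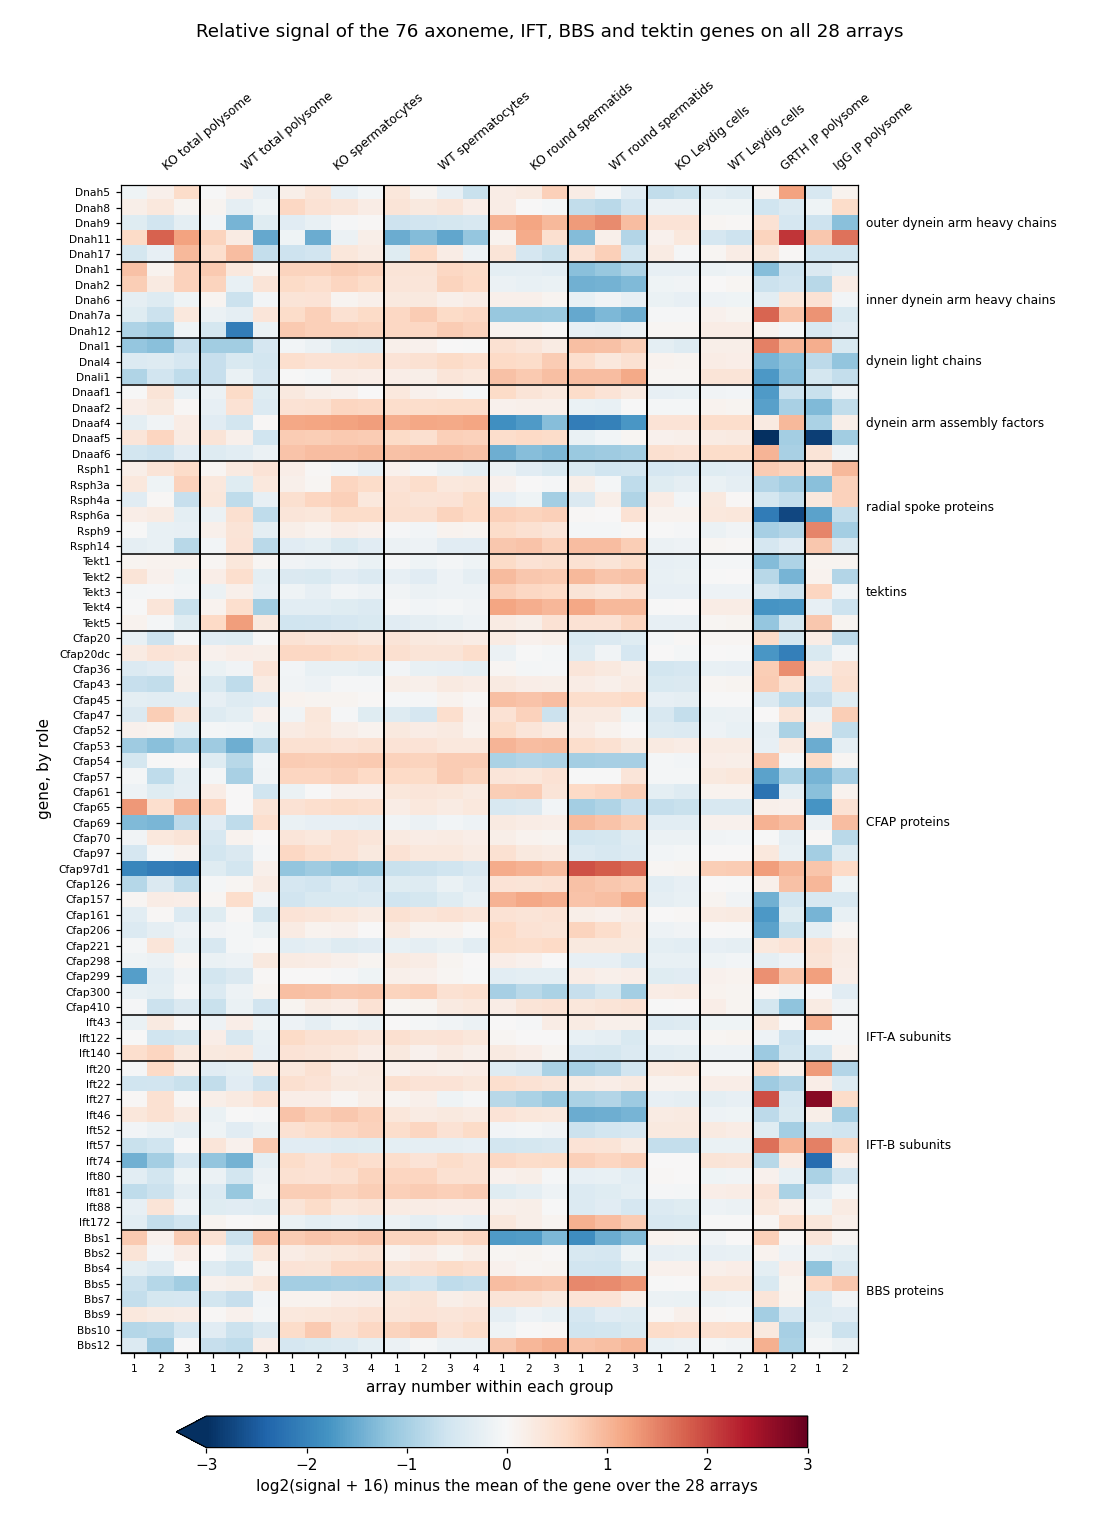
Log2 signal of the 76 genes (rows, ordered by role) on the 28 arrays (columns, by group), each row centred on its mean over all arrays, with the colour scale ending at a difference of 3 on the log2 scale either way. The round spermatid columns differ from the spermatocyte columns in most rows, and the immunoprecipitated arrays vary most within a group.

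The first comparison set WT round spermatids against WT spermatocytes and asked how these genes move as germ cells pass from meiosis to the stage that builds the flagellum. The families moved in different directions. All 5 tektins were higher in round spermatids, all 5 inner arm heavy chains were lower, 8 of 11 IFT-B genes were lower and 3 higher, and 5 of 8 Bbs genes were lower and 2 higher. Of 71 members tested, 26 were higher and 38 lower, 36.6% and 53.5%, while 36.2% and 51% of all 9097 genes tested were higher and lower (87.2% were called in all). With near-identical spermatocyte or round spermatid arrays averaged, 61 members were called in each case, beside 83% and 84.9% of all genes tested. The members' median log2 difference was -0.397 and that of all genes tested -0.235. As a check of the cells, 8 of 9 round spermatid markers were higher and 8 of 10 spermatocyte markers lower in WT round spermatids. All 12 elongating spermatid markers were higher there too. All 6 Leydig cell markers were lower, summing to 978.5 to 1015 in WT round spermatids and 6475 to 7067 in WT spermatocytes. Both macrophage, both smooth muscle and both multiciliated cell markers tested were higher. The part of other cells and stages in the members' differences was not tested.

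Tekt2 had the largest difference of the tektins, with 18100, 16460 and 16870 in WT round spermatids and 7744, 7268, 8247 and 7694 in WT spermatocytes. The groups did not overlap, and the log2 difference was 1.15 (SE 0.065, adjusted p 2.32e-07). Tekt4 had 13860, 12220 and 12230 in WT round spermatids against 6025, 5815, 5893 and 5771 in WT spermatocytes, a log2 difference of 1.12. The differences of Tekt5, Tekt1 and Tekt3 were 0.75, 0.54 and 0.52. Quantile normalization shifted the log2 differences in this comparison by a median of -0.145 over all genes, and the shift varied between genes. Under it all 5 tektins were still above 0 but 4 were called, with the smallest difference 0.0141.

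Among the inner arm heavy chains Dnah7a had 260.5, 297.9 and 270.1 in WT round spermatids and 1204, 1323, 1159 and 1215 in WT spermatocytes. Every round spermatid array was below every spermatocyte array, with a log2 difference of -2.09 (SE 0.070, adjusted p 1.01e-08). Dnah2 differed by -1.90, Dnah1 by -1.60, Dnah12 by -0.90 and Dnah6 by -0.43. These 5 chains were also lower, and called, under quantile normalization and with arrays centred on their medians. For Dnah1 the fall holds for its brightest probe set only, and the other was called higher. Of the outer arm chains, Dnah8, the main one known from sperm, had 6648, 6294 and 7429 in WT round spermatids and 14610, 13510, 14270 and 12780 in WT spermatocytes, a log2 difference of -1.02 (SE 0.077, adjusted p 1.67e-06). Dnah9 went the other way and was 3.379-fold higher in round spermatids, with a log2 difference of 1.76 (SE 0.11, adjusted p 3.82e-07).

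The assembly factors held the largest fall. Dnaaf4, a cochaperone for dynein arm assembly, had 281.6, 288.4 and 353.8 in WT round spermatids and 2651, 2759, 2742 and 2811 in WT spermatocytes. The groups were far apart, and the signal was 8.549-fold lower in round spermatids (log2 difference -3.10, SE 0.082, adjusted p 4.05e-09). Dnaaf6, another factor of the assembly complex, was 3.928-fold lower. Of the 5 spoke genes tested, Rsph14 was higher, at 1581, 1591 and 1390 in WT round spermatids against 731.7, 744, 650.6 and 649.7 in WT spermatocytes, and 3 were lower.

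The Cfap genes split evenly, with 10 higher and 10 lower of 24 tested. Cfap97d1, known in the mouse as a protein of the sperm axoneme, was 5.31-fold higher in WT round spermatids (log2 difference 2.41, SE 0.072, adjusted p 6.21e-09). Its arrays read 11080, 10440 and 9616 in WT round spermatids and 1844, 1887, 1930 and 2102 in WT spermatocytes. Cfap157, needed for mouse sperm tails, was higher by 1.38 and Cfap126, which positions basal bodies, by 1.14. Cfap54, a central pair protein, had 508, 517.7 and 514.7 in WT round spermatids against 1716, 1684, 1789 and 1780 in WT spermatocytes, a log2 difference of -1.73. Cfap300 and Cfap65 were lower by -1.32 and -1.15 on the log2 scale.

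Transport genes split within their complexes. Ift172, an IFT-B subunit, was higher in WT round spermatids by 1.14 and Ift57 by 0.62, while Ift46, of the same complex, was 3.336-fold lower (log2 difference -1.74, SE 0.055, adjusted p 7.71e-09). Bbs5 had 9029, 8861 and 8251 in WT round spermatids and 2069, 2189, 1956 and 2010 in WT spermatocytes, 4.214-fold higher (log2 difference 2.08, SE 0.063, adjusted p 6.5e-09). Its fellow BBSome subunit Bbs1 had 133.5, 178.7 and 208 in WT round spermatids and 854.5, 859.3, 788.9 and 837.2 in WT spermatocytes, a log2 difference of -2.19. Bbs12, a chaperonin-like protein, was higher by 1.06.

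**Figure D2:**
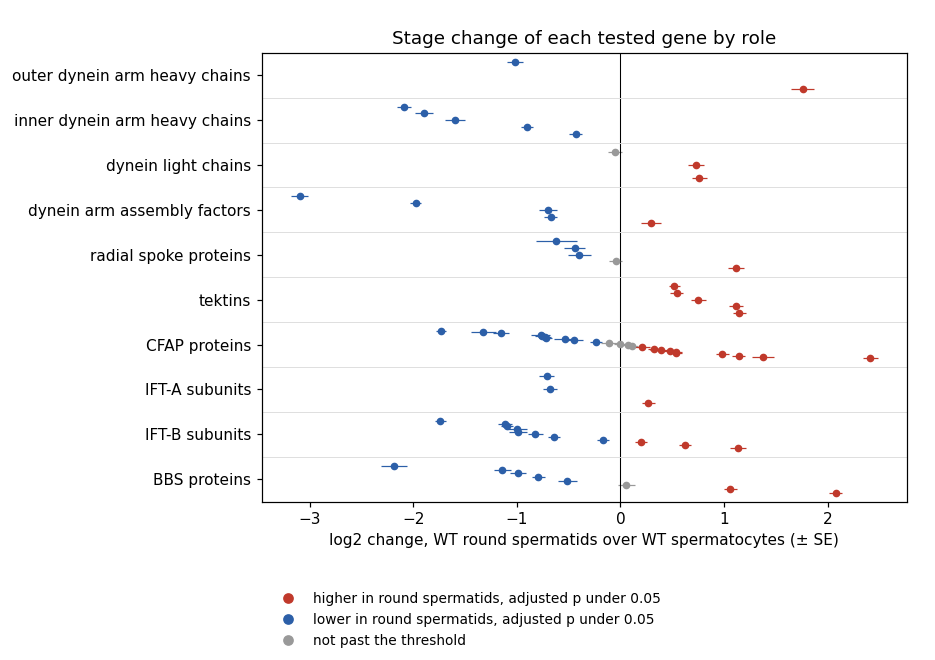
Log2 difference, WT round spermatids minus WT spermatocytes, of each member tested (points, 1 per gene, with SE bars; red higher, blue lower, grey not called), grouped by role on the vertical axis. The 5 tektins lie between 0.52 and 1.15 and the 5 inner arm heavy chains between -2.09 and -0.43.

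The comparison of KO with WT round spermatids asked what the loss of GRTH changes in the cells that assemble the tail. All 5 inner arm heavy chains rose, as did the outer arm chain Dnah8, while the light chain Dnal1 fell. Within IFT-B 5 genes rose and 2 fell, with Ift46 the largest rise and Ift57 the largest fall of all members. Of 70 members tested, 31 rose and 10 fell, 44.3% and 14.3%, while 41% and 22.4% of the 9097 genes tested rose and fell (63.4% were called in all). The members' median log2 difference was 0.203 and that of all genes tested 0.15. Centring arrays on their medians lowered the log2 difference of every gene by 0.115. It left 25 members higher and 13 lower, while 59.3% of all genes tested were called in either direction. With the near-identical arrays 1 and 2 averaged, a setting chosen after seeing the data, 31 members and 48.1% of all genes tested were called.

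Markers of neighbouring stages moved in the same arrays. The summed signal of 10 spermatocyte markers was 24890 to 25980 in KO round spermatids and 16020 to 17350 in WT round spermatids, with 6 called higher and 0 lower. The summed signal of 12 elongating spermatid markers was 215500 to 271000 in KO and 336300 to 463200 in WT, with all 12 called lower. The 9 round spermatid markers summed to 95320 to 103100 in KO and 124100 to 141800 in WT, with 2 higher and 5 lower. The 4 markers of multiciliated cells summed to 4057 to 4514 in KO and 2758 to 3541 in WT, with 2 of 3 tested higher. No marker of these lists averaged under the pseudocount, and the part of other stages and cells in the members' differences was not tested. The stage comparison and the KO comparison share the 3 WT round spermatid arrays, so their values are given side by side only.

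Ift46 had 6673, 6349 and 6243 in KO round spermatids and 1764, 1812 and 1895 in WT round spermatids, means of 6422 ± 224 and 1823 ± 66.0 (SD, n = 3 each). Every KO array was far above every WT array, a 3.5-fold rise (log2 difference 1.81, SE 0.065, adjusted p 2.85e-06). Ift46 is an IFT-B subunit, known from Chlamydomonas as needed to carry outer arm dynein into the flagellum. It lies on chromosome 9, which also carries Ddx25, with 77 genes of the array between them, and 5 of the members lie on that chromosome. Whether its position near the altered locus takes part in its difference was not tested. Ift57 had 2267, 2295 and 2395 in KO round spermatids and 4396, 4322 and 3969 in WT round spermatids. The groups did not overlap, and the signal was 1.816-fold lower in KO (log2 difference -0.86, SE 0.069, adjusted p 5.24e-05).

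The sequences before the start sites of these oppositely moving IFT-B genes, the largest rise and the largest fall, are shown as examples. They differ in known ciliary and spermatid motifs. Both are the 250 bases before the RefSeq start on GRCm38.p6, plus strand, of Ift46 at chr9:44772759-44773008 and of Ift57 at chr16:49699044-49699293. Capitals mark the cAMP response element TGACGTCA, the motif of Crem, the X-box, the motif of Rfx factors (GTNNCC, NN and GGNAAC in a row), and the X-box half-site GTTGCC, each searched on both strands. The Ift46 window held none of these letters, and the Ift57 window held the cAMP response element starting at base -162, the X-box at -87 and a further half-site after it. This X-box matches on the other strand, so it reads GTTNCC, NN and GGNNAC in a row as printed.
Ift46: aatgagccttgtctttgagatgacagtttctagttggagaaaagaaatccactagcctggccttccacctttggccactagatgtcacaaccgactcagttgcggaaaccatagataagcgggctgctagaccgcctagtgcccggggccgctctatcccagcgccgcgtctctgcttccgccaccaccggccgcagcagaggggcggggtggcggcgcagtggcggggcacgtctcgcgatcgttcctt
Ift57: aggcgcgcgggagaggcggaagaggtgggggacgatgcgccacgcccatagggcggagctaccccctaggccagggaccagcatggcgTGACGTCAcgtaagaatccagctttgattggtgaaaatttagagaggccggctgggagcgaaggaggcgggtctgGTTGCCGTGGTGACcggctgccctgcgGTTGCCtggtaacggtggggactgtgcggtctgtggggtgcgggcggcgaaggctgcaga
A match is a description of the letters in the window and not evidence of a bound factor. Dnah6, the only other member with the cAMP response element, rose in KO round spermatids. Of 10 X-box members tested there, 4 rose and 2 fell. Whether these motifs have a part in the direction was not tested.

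Among the dynein heavy chains Dnah2 rose most. It had 2543, 2465 and 2476 in KO round spermatids and 1045, 1061 and 1127 in WT round spermatids, a 2.297-fold rise (log2 difference 1.20, SE 0.063, adjusted p 1.01e-05). The KO arrays lay close together and all above the WT arrays. Dnah1 had 1963, 1992 and 1934 in KO and 1014, 1094 and 1258 in WT round spermatids, a log2 difference of 0.80 (SE 0.088, adjusted p 0.000203). Dnah8 had 13070, 11210 and 10750 in KO and 6648, 6294 and 7429 in WT round spermatids, a log2 difference of 0.78 (SE 0.10, adjusted p 0.000408). Neither gene's groups overlapped. Dnah6, Dnah7a and Dnah12 rose by 0.31 to 0.32, and Dnah7a, the dimmest of its class here, had 344.4, 345.3 and 349.9 in KO against 260.5, 297.9 and 270.1 in WT round spermatids. All 5 inner arm chains were called with arrays centred on their medians, and 3 of them under quantile normalization, where the differences ran from 0.0972 to 1.07. Dnah9 had overlapping groups, with 1000, 1102 and 947.5 in KO and 1176, 1300 and 928.7 in WT round spermatids, and was not called (log2 difference -0.15, adjusted p 0.346).

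Dnal1, a light chain bound to the outer arm motor, had 1015, 956.7 and 886.8 in KO and 1388, 1379 and 1240 in WT round spermatids. All KO arrays were below all WT arrays, with a log2 difference of -0.48 (SE 0.080, adjusted p 0.00145). Of the assembly factors Dnaaf5 rose, with 2302, 2409 and 2315 in KO and 1380, 1489 and 1644 in WT round spermatids (log2 difference 0.64, SE 0.080, adjusted p 0.000375), and Dnaaf2 rose by 0.28. Dnaaf6 fell, with 211.4, 244.7 and 231.3 in KO and 275.1, 286.9 and 294.2 in WT round spermatids (log2 difference -0.30, SE 0.074, adjusted p 0.00912). Of 5 spoke genes tested, the spoke head genes Rsph6a and Rsph9 rose, by 0.54 and 0.48 on the log2 scale. Rsph9 had 6767, 6362 and 5971 in KO and 4425, 4488 and 4756 in WT round spermatids, without overlap.

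Of the tektins Tekt3 alone was called, with 9118, 8489 and 8454 in KO and 7327, 6945 and 7380 in WT round spermatids (log2 difference 0.27, SE 0.067, adjusted p 0.0095). The differences of Tekt1, Tekt2, Tekt4 and Tekt5 were 0.035, -0.041, 0.058 and -0.21, with adjusted p between 0.0877 and 0.684. This set depended on the scaling: 0 tektins were called higher and 1 lower with centred arrays, and 4 were called higher under quantile normalization. With replicates as blocks Tekt5 was called lower, with an adjusted p of 0.0189.

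Of 23 Cfap genes tested 10 rose and 5 fell. Cfap97 had 16110, 14500 and 14070 in KO and 8943, 8418 and 8899 in WT round spermatids, a log2 difference of 0.76 (SE 0.075, adjusted p 0.000122). Cfap20, at the inner junction of the doublet, had 6369, 5880 and 6003 in KO and 3865, 3916 and 4132 in WT round spermatids, a log2 difference of 0.61, and Cfap70 rose as much. The groups of all these genes were apart. Cfap97d1 fell most of the Cfap genes, with 6351, 6090 and 5684 in KO and 11080, 10440 and 9616 in WT round spermatids (log2 difference -0.78, SE 0.080, adjusted p 0.000151). Cfap69, needed for the mouse sperm tail, had 8480, 8195 and 8049 in KO and 13530, 12700 and 11760 in WT round spermatids, a log2 difference of -0.62 (SE 0.074, adjusted p 0.000299). Cfap299 fell by 0.49, Cfap126 by 0.41 and Cfap36 by 0.28 on the log2 scale. Cfap126 was not called under quantile normalization (adjusted p 0.363), and Cfap36 was above 0 there, at 0.0851.

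Ift172, like Ift57 a peripheral IFT-B subunit, also fell, with 10290, 9355 and 8789 in KO and 17400, 15790 and 14070 in WT round spermatids (log2 difference -0.73, SE 0.099, adjusted p 0.000554). The core IFT-B genes Ift88 and Ift52 rose, by 0.52 and 0.49, as did Ift80 by 0.35 and the small GTPase Ift22 by 0.20. Of 3 IFT-A genes Ift140 and Ift122 rose, by 0.66 and 0.34, and Ift43 had a log2 difference of -0.12 (adjusted p 0.257). Ift140 had 11770, 11060 and 10190 in KO and 6783, 6741 and 7331 in WT round spermatids, with every KO array higher. Of 8 Bbs genes Bbs4 rose by 0.60, Bbs10 by 0.51 and Bbs2 by 0.43. Bbs4, a BBSome subunit, had 902.4, 864.2 and 869.6 in KO and 551.5, 539.8 and 641.7 in WT round spermatids. Bbs5 fell, with 6323, 6122 and 5896 in KO and 9029, 8861 and 8251 in WT round spermatids, 1.424-fold lower (log2 difference -0.51, SE 0.068, adjusted p 0.000501).

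**Figure D3:**
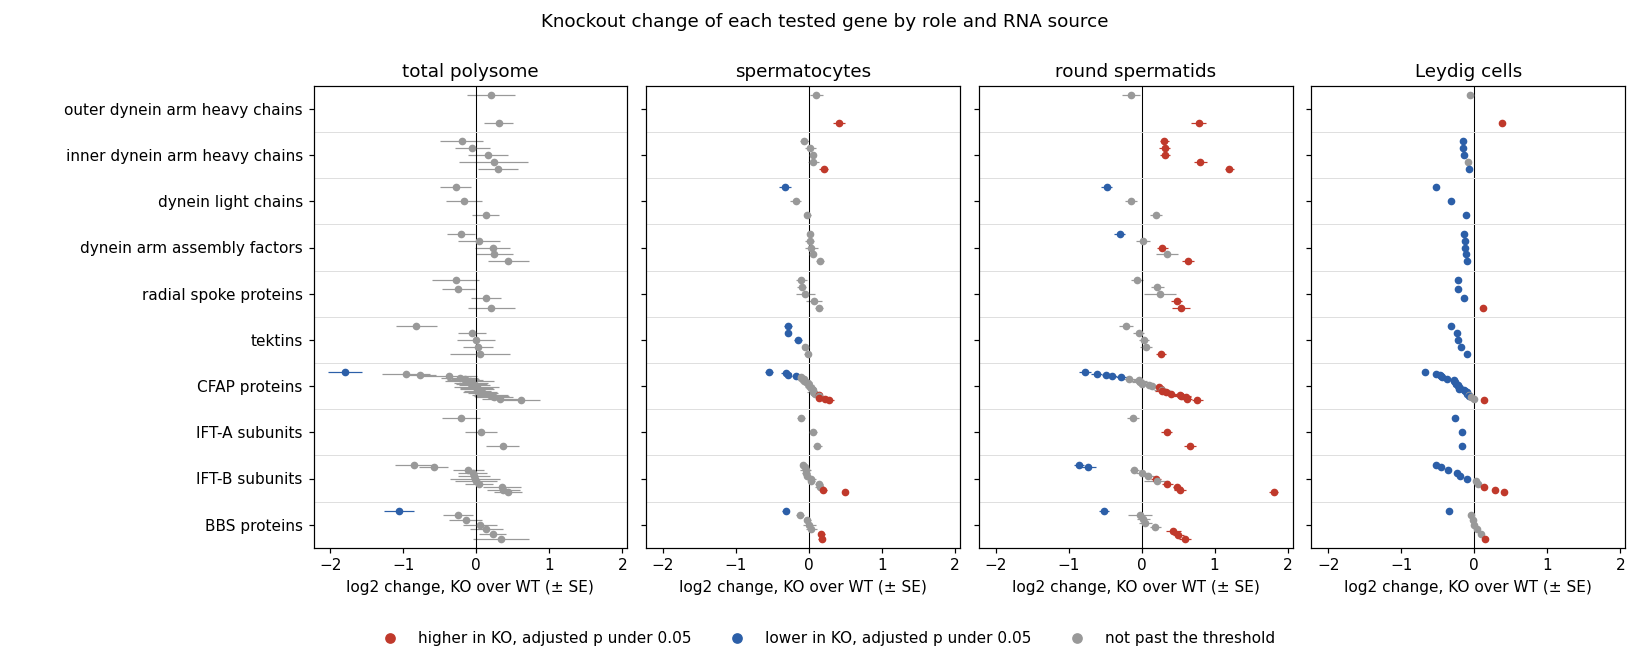
Log2 difference, KO minus WT, of each member tested (points, 1 per gene, with SE bars; red higher, blue lower, grey not called) in total polysome, spermatocytes, round spermatids and Leydig cells, grouped by role. The round spermatid differences run up to 1.81 for Ift46, the lowest total polysome difference is -1.80 for Cfap97d1, and most Leydig cell points lie below 0.

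The KO differences of some members in round spermatids stand beside their stage differences as follows, on the log2 scale. Ift46 had a KO difference of 1.81 and a stage difference of -1.74, Dnah2 1.20 and -1.90, and Dnah8 0.78 and -1.02. Cfap97d1 had a KO difference of -0.78 and a stage difference of 2.41, Bbs5 -0.51 and 2.08, and Ift57 -0.86 and 0.62. Dnaaf6 had -0.30 and -1.97, and Tekt3 had 0.27 and 0.52. Dnaaf4 had a KO difference of 0.35 that was not called (adjusted p 0.0861, and 0.00997 with replicates as blocks) and a stage difference of -3.10. WT round spermatids stand in both differences with opposite sign, so noise in those arrays pushes such a pair of values in opposite directions, and no relation is read from them.

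**Figure D4:**
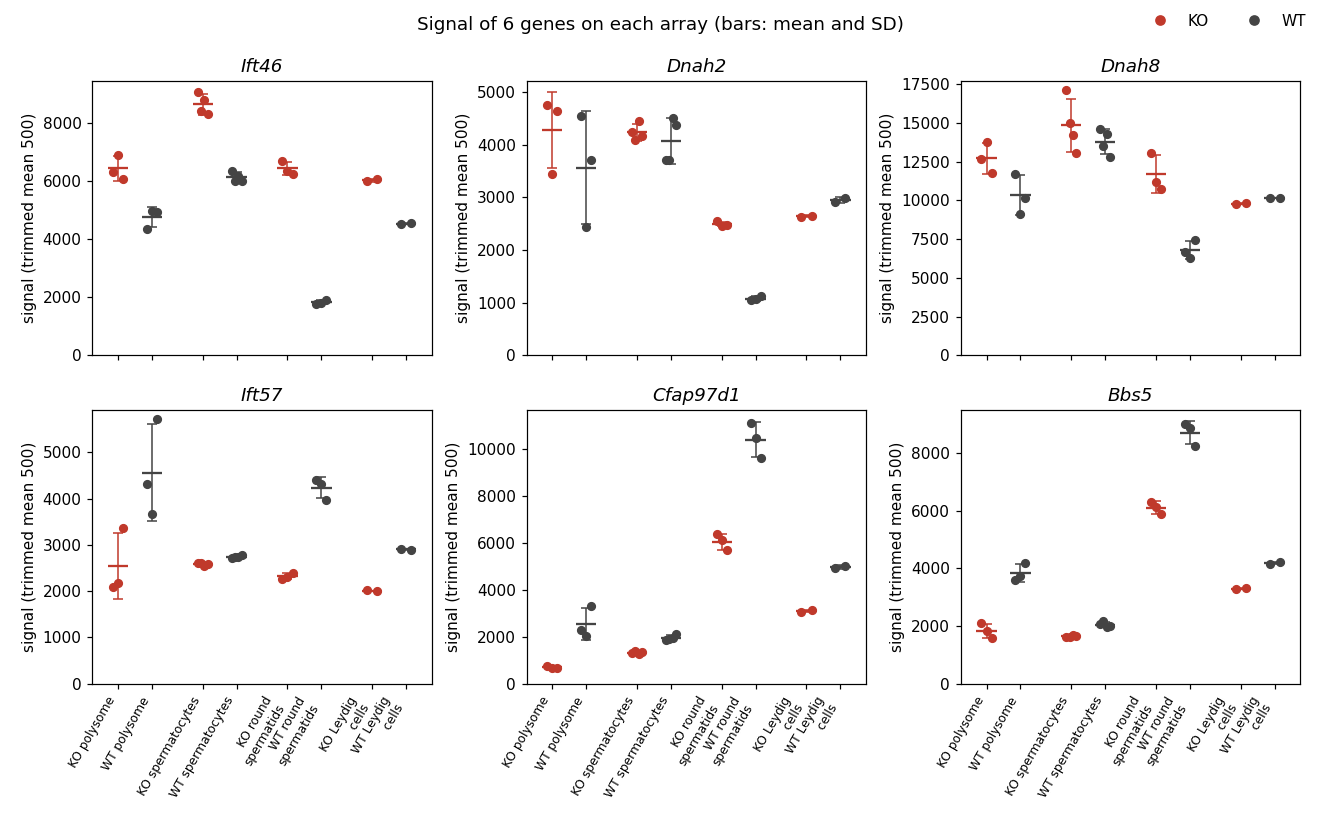
Signal of Ift46, Dnah2, Dnah8, Ift57, Cfap97d1 and Bbs5 on each array (points, linear axis starting at 0) with KO left of WT in each source, and bars for the group mean and SD. KO and WT points are apart for all 6 genes in round spermatids, and Ift46 is higher and Cfap97d1 and Bbs5 lower in KO there.

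The KO effect in round spermatids was then set against the KO effect in spermatocytes in 1 fit over both cell types. Of 71 members tested, 32 had a higher and 9 a lower KO effect in round spermatids, 45.1% and 12.7%, while 32.3% and 13.7% of all genes tested did (46% were called in all). The difference of effects was 1.31 on the log2 scale for Ift46 (SE 0.072, adjusted p 9.12e-08) and 1.14 for Dnah2 (SE 0.10, adjusted p 3.21e-06). It was 0.676 for Dnah8, 0.643 for Rsph6a and 0.628 for Cfap97, and all 5 inner arm heavy chains had a called positive difference. It was -0.775 for Ift57, -0.682 for Ift172, -0.558 for Dnah9, -0.509 for Cfap69 and -0.446 for Cfap300. With arrays centred on their medians, 18 members had a higher and 11 a lower effect, and 3 inner arm chains were called. Of all genes tested 38.9% were called in that setting. With near-identical spermatocyte arrays averaged 26 members were called, beside 30.4% of all genes tested. Dnah9 and Cfap300 were not among these members.

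In spermatocytes the KO changes were small: no member changed by as much as 2-fold. Of the tektins 3 fell, while Ift46 rose and Cfap97d1 fell. Of 70 members tested, 10 rose and 9 fell, 14.3% and 12.9%, while 19.6% and 17.8% of the genes tested did (37.4% in all). The medians were 0.0085 for the members and 0.0324 for all genes tested. With arrays centred on their medians 5 members rose and 7 fell, while 32.2% of all genes tested were called in either direction. When the near-identical arrays 1 and 2 and arrays 3 and 4 were averaged, leaving 2 values a group, 2 members were called, Ift46 higher and Cfap97d1 lower. In that setting 13.5% of all genes tested were called. The calls of all other members in spermatocytes rest on counting these arrays as separate.

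Ift46 had 9052, 8388, 8770 and 8286 in KO spermatocytes and 6339, 5988, 6174 and 5977 in WT spermatocytes (log2 difference 0.49, SE 0.045, adjusted p 4.13e-05). Cfap97d1 had 1290, 1393, 1257 and 1355 in KO and 1844, 1887, 1930 and 2102 in WT spermatocytes (log2 difference -0.55, SE 0.055, adjusted p 7.11e-05). In both genes the groups did not overlap. Dnah9 had 375.1, 410.1, 463.6 and 493.3 in KO and 306.6, 315.4, 326 and 338.4 in WT spermatocytes, a log2 difference of 0.41 (SE 0.081, adjusted p 0.00345). Dnah2, by contrast with round spermatids, had overlapping groups, with 4242, 4084, 4449 and 4175 in KO and 3704, 3704, 4520 and 4370 in WT spermatocytes (log2 difference 0.06, adjusted p 0.55).

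Tekt4 had 4949, 4939, 4779 and 4645 in KO and 6025, 5815, 5893 and 5771 in WT spermatocytes, a log2 difference of -0.28 (SE 0.041, adjusted p 0.000597). Tekt5 had 1606, 1647, 1719 and 1778 in KO and 1925, 2032, 2108 and 2207 in WT spermatocytes, a log2 difference of -0.29 (SE 0.055, adjusted p 0.0029). Neither overlapped, while Tekt2, lower by -0.15 (adjusted p 0.0429), had overlapping groups. Tekt1 and Tekt3 had log2 differences of -0.05 and -0.018 and were not called. Elongating spermatid markers in the same arrays summed to 75620 to 83160 in KO and 130700 to 159800 in WT spermatocytes, with all 12 lower, and 6 of 9 round spermatid markers were lower. The 6 Leydig cell markers summed to 8748 to 9715 in KO and 6475 to 7067 in WT spermatocytes, with 5 higher. Their part in the tektin values was not tested.

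Bbs5 had 1631, 1621, 1678 and 1640 in KO and 2069, 2189, 1956 and 2010 in WT spermatocytes, a log2 difference of -0.32 (SE 0.046, adjusted p 0.000566). Dnal1 fell by 0.33 and Cfap61, a radial spoke protein, by 0.31, and Cfap43 and Cfap126, by 0.29 and 0.18, fell too. The rises other than Ift46 and Dnah9 were of 0.13 to 0.27, in Cfap300, Cfap65, Dnah1, Ift88, Bbs2, Bbs1, Cfap20dc and Cfap70. Cfap300, a cytoplasmic factor for dynein assembly, had 2940, 2886, 2743 and 2807 in KO and 2477, 2560, 2150 and 2227 in WT spermatocytes, all KO arrays higher. Ift57 and Ift172 were not called in spermatocytes, with log2 differences of -0.086 and -0.048.

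In total polysome, the RNA that the study set out to profile, 2 members fell and 0 rose by limma. These were the sperm axoneme gene Cfap97d1 and the BBSome gene Bbs5. They are 2.99% of 67 members tested, while 6.34% of the genes tested were called, 0.572% higher and 5.77% lower. The members' median log2 difference was 0.00689 and that of all genes tested 0.125, and centring arrays on their medians lowered the latter median by 0.132. The arrays varied more here than in the cells, with an SD of log2 differences between arrays of a group of 0.449 to 0.713. The 12 elongating spermatid markers summed to 30440 to 58070 in KO and 229900 to 465600 in WT total polysome, with all 12 lower. The 9 round spermatid markers summed to 43590 to 52520 in KO and 63960 to 85250 in WT, with 2 lower, and the 6 Leydig cell markers to 42090 to 69120 in KO and 22720 to 42660 in WT, which overlap. The part of these cells in the members' values was not tested.

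Cfap97d1 had 751.2, 684.6 and 663.8 in KO total polysome and 2290, 2011 and 3294 in WT total polysome, 3.485-fold lower (log2 difference -1.80, SE 0.23, adjusted p 0.00168). Bbs5 had 2100, 1814 and 1605 in KO and 3591, 3736 and 4187 in WT total polysome, 2.085-fold lower (log2 difference -1.06, SE 0.20, adjusted p 0.0132). In both genes the groups were apart, and Cfap97d1 lost its call, of the settings tried, only on values as deposited. Bbs5 was not called when WT array 1, KO array 2 or KO array 3 was left out (adjusted p of 0.0519 or more). It was also not called with no filter on dim genes or on values as deposited. Without the 3 arrays of conflicting description 1 WT array was left, and the Bbs5 log2 difference was -1.29. Ift46 had 6315, 6891 and 6074 in KO and 4345, 4975 and 4917 in WT total polysome, apart but not called (log2 difference 0.44, SE 0.19, adjusted p 0.254).

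Arrays of total polysome with the same replicate number deviated together, and with the number as a block 8 of 67 members were called, 1 higher and 7 lower, while 24.7% of all genes tested were, 12.9% higher and 11.8% lower. The additional falls were in Ift57, Cfap126, Cfap69, Tekt5 and Ift172, and the rise was in Cfap65. Ift57 had 2082, 2175 and 3370 in KO and 4309, 3657 and 5718 in WT total polysome, a log2 difference of -0.85 with an adjusted p of 0.111 without the block and 0.00226 with it. Tekt5 had 2628, 2372 and 1910 in KO and 3740, 5894 and 3003 in WT total polysome, a log2 difference of -0.82 with an adjusted p of 0.144 without the block and 0.00668 with it. Ift172 had 6640, 5072 and 5456 in KO and 8826, 8325 and 8468 in WT total polysome, a log2 difference of -0.59, with 0.145 and 0.0198 as its adjusted p without and with the block. In all 3 genes every KO array was below every WT array, and the share of all genes with such groups was not counted.

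The KO effect in total polysome was also set against that in round spermatids. This fit gives each gene 1 spread over both sources. Between arrays of a group the SD of log2 differences was 0.449 to 0.713 in total polysome and 0.162 to 0.28 in round spermatids. The SE and adjusted p thus rest partly on the tighter round spermatid arrays. The SE of Ift46 here was below that in total polysome alone. Total polysome came from whole testes and round spermatids from purified cells, whose part was not tested. Of 68 members tested 2 had a lower effect in total polysome, 2.94%, while 2.79% of all genes tested were called, 0.539% higher and 2.25% lower. For Ift46 the difference of effects was -1.37 (SE 0.17, adjusted p 0.00318), since its rise of 1.81 in round spermatids stood beside a difference of 0.44 in total polysome. For Cfap97d1 it was -1.02 (SE 0.24, adjusted p 0.0446), with KO differences of -1.80 in total polysome and -0.78 in round spermatids. For Bbs10 it was -0.76 (SE 0.20, adjusted p 0.0603), and the 3 highest, Dnah9, Dnal1 and Ift43, were 0.35, 0.31 and 0.18 with adjusted p of 0.561 or more. With replicates as blocks 9 members were called, all lower, while 15.4% of all genes tested were called. With round spermatid arrays 1 and 2 averaged 0 were called, and the adjusted p of Ift46 was 0.0721. The Cfap97d1 difference lost its call when any 1 round spermatid array, or WT array 1, KO array 2 or KO array 3 of total polysome, was left out. Without WT array 2 of total polysome 5 of 69 members were called, and 7.97% of all genes tested. Without the 3 arrays of conflicting description 1 WT total polysome array was left. The differences of effects were then -1.41 for Ift46 and -1.48 for Cfap97d1.

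Leydig cells are the steroid-making cells between the tubules and carry no flagellum. On the arrays of purified Leydig cells 7 members rose and 49 fell in KO, among them all 5 tektins, all 5 assembly factors and 4 of 5 inner arm chains. Among the assembly factors the fall of Dnaaf2 holds for its brightest probe set only. This was 10.3% and 72.1% of the 68 members tested, while 38.6% of all genes tested rose and 39.3% fell (77.9% in all). The median log2 difference of the members was -0.144 and that of all genes tested -0.00915. Centring arrays on their medians lowered the log2 difference of every gene by 0.294. It gave 2 members higher and 65 lower, while 88.3% of all genes tested were called in either direction. Quantile normalization gave 10 members higher and 37 lower, while 76.2% of all genes tested were called in either direction. With 2 arrays a group, the SD of log2 differences between arrays was 0.0765 in KO and 0.0884 in WT, the smallest of all groups. No member changed by 2-fold.

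Marker sums on the same arrays differed in both directions. Elongating spermatid markers were lower in KO in 12 of 12 genes and round spermatid markers in 8 of 9, the latter summing to 54470 to 54920 in KO and 69500 to 70000 in WT. Spermatocyte markers summed to 37000 to 37410 in KO and 37350 to 38010 in WT, with 2 higher and 3 lower of 9 tested. All 6 Leydig cell markers were higher in KO, and 4 of 4 macrophage markers tested were, summing to 5414 to 5450 in KO and 2263 to 2321 in WT. The share of germ cells in these preparations and its part in the members' values was not tested.

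The largest fall was again that of Cfap97d1, with 3070 and 3137 in KO and 4913 and 5025 in WT Leydig cells (log2 difference -0.68, SE 0.025, adjusted p 8.15e-05). Ift57 had 2014 and 2011 in KO and 2904 and 2896 in WT Leydig cells, a log2 difference of -0.52 (SE 0.019, adjusted p 8.05e-05). Ift172 had 5985 and 6075 in KO and 8193 and 8286 in WT Leydig cells, a log2 difference of -0.45. All 3 genes had KO arrays below WT arrays. Cfap43, Dnal1, Cfap299, Cfap69, Cfap61, Cfap57 and Ift74 fell by 0.36 to 0.52 on the log2 scale. Tekt5 fell most of the tektins, with 2066 and 2072 in KO and 2567 and 2606 in WT Leydig cells (log2 difference -0.32), and the other tektins fell by 0.0997 to 0.24. Under quantile normalization 2 tektins were called lower and 1 higher.

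Ift46 was the largest rise, with 5984 and 6052 in KO and 4515 and 4544 in WT Leydig cells (log2 difference 0.41, SE 0.020, adjusted p 0.000172). Dnah9 had 643.1 and 642.1 in KO and 494.2 and 486.1 in WT Leydig cells, a log2 difference of 0.38 (SE 0.021, adjusted p 0.000225). Ift46 and Dnah9 were higher in KO under each scaling tried. Ift20, an IFT-B protein also found at the Golgi, had 980.9 and 996.7 in KO and 808.2 and 808 in WT Leydig cells, a log2 difference of 0.29. The rises of Ift20, Bbs1, Ift80, Cfap300 and Rsph9, of 0.115 to 0.29, were below 0 with arrays centred on their medians, and a further probe set of Ift80 fell. In 1 fit over all arrays but the IP arrays, whose spread comes mostly from the other groups, 7 members were called (1 higher, 6 lower), while 23.2% of all genes tested were. Of the members named, Ift46, Cfap97d1, Ift57, Ift172 and Dnal1 were called there, while Dnah9 was not (adjusted p 0.35), nor were Cfap43, Cfap299, Cfap69, Cfap61, Cfap57 and Ift74 (0.0869 to 0.363) or the other 5 rises (0.388 to 0.808).

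In the immunoprecipitated polysome RNA, which asked whether transcripts are bound to GRTH, 0 of 68 members were called by limma, and 0% of the 9097 genes tested were. At an unadjusted p under 0.05 there were 1 member and 364 genes. With the replicate number as a block 0 members and 65 genes (0.715%) were called, and 1 fit over all 28 arrays, whose spread comes mostly from the other groups, called 25 members and 27.8% of all genes tested. Without IgG IP array 1, whose description went against its title, 1 IgG IP array was left. The log2 differences were then -1.12 for Tekt4, -0.914 for Tekt5 and -1.19 for Tekt1. Those of Dnaaf4, Dnah9 and Dnal1 were 0.449, 1.22 and 1.72. The 2 arrays of a group differed widely, with an SD of log2 differences of 1.01 in GRTH IP and 1.13 in IgG IP, and the 3' to 5' ratio of actin probe sets was 3.81 to 12.8 in GRTH IP and 10 in IgG IP, beside 1.41 to 2.09 on all other arrays.

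All 5 tektins had lower signals in GRTH IP than in IgG IP, under each scaling tried, with log2 differences of -0.73 to -1.31 and none called. This was not particular to tektins. In the main fit all spoke genes tested (-1.25 to -0.0382) and all IFT-A genes (-0.583 to -0.339) were below 0 too. The other roles had members on both sides of 0. Tekt4 had 1801 and 1844 in GRTH IP and 5187 and 3991 in IgG IP (log2 difference -1.31, SE 0.58, adjusted p 0.977). Tekt5 had 1095 and 1705 in GRTH IP and 4290 and 2589 in IgG IP, and Tekt1 had 3832 and 4986 in GRTH IP and 10150 and 9997 in IgG IP. The groups were apart for these 3 genes, but their SE were 0.58 to 0.61, and the share of all genes with such groups was not counted. The highest members were Dnaaf4 at 1.01 (SE 0.64), Dnal1 at 0.94 and Dnah9 at 0.90. Cfap97d1 had 7004 and 5839 in GRTH IP and 5275 and 4476 in IgG IP, apart and not called.

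Several genes were read by probe sets that went opposite ways, and their direction here is that of the brightest probe set. Each comparison had 21 to 23 members with several tested probe sets, and the values in this paragraph are of a fit over all probe sets. Between WT round spermatids and WT spermatocytes, Dnal1 differed by 0.76 with the probe set used and -1.62 with the other (SE 0.090, adjusted p 6.7e-07). Dnali1 differed by 0.73 and -0.81 and Dnah1 by -1.60 and 0.24. Dnaaf1 differed by 0.29 and -1.28, and Cfap410 by 0.21 and -2.54. In KO against WT spermatocytes the Cfap43 probe sets gave -0.29, -0.38 and 0.36, each called, and in Leydig cells they gave -0.52, -0.76 and 0.72. In KO against WT Leydig cells 4 other genes had probe sets called opposite ways, Dnaaf2 (-0.14 with the probe set used and 0.14 with the other), Ift80 (0.14 and -0.089), Cfap70 (-0.093 and 0.64) and Bbs4 (-0.29 and 0.22 with probe sets not used). In round spermatids the Cfap43 values were 0.0078, 0.26 and 1.08, with the last the probe set that rose in spermatocytes too (SE 0.18, adjusted p 0.00266). Cfap97 rose in round spermatids with all 3 of its probe sets, at 0.76, 0.42 and 0.39, while the other 2 fell in spermatocytes, by 0.44 and 0.34 on the log2 scale. Cfap69 fell in round spermatids with all 3, the other 2 by 0.31 and 0.35.

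**Figure D5:**
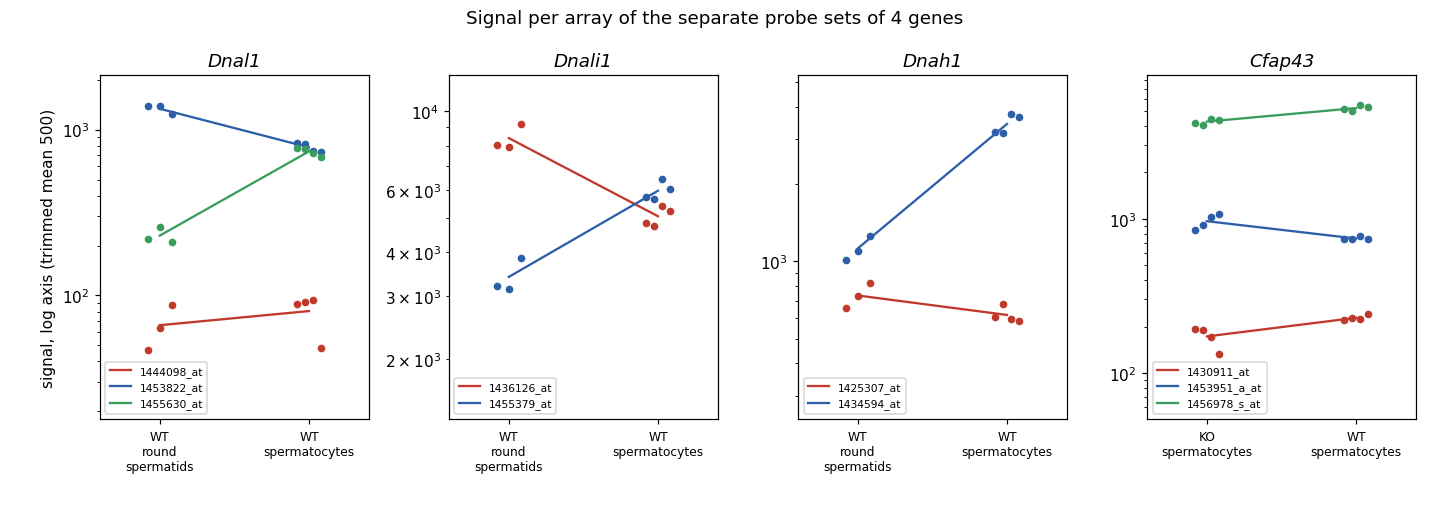
Signal per array (points, log axis, lines joining the group means) of each probe set of Dnal1, Dnali1 and Dnah1 in WT round spermatids and WT spermatocytes, and of Cfap43 in KO and WT spermatocytes, with the left group in each panel the 1 named first. Probe sets of 1 gene slope in opposite directions in each panel.

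Other genes of the axoneme and cilium with different symbols were taken as a list of 89 names, of which 73 were on the array. In KO round spermatids 32 of 72 rose and 13 fell (44.4% and 18.1%, median 0.17), near the 41% and 22.4% of all genes tested. In KO Leydig cells 5 of 73 rose and 53 fell (6.85% and 72.6%, median -0.177), beside 38.6% and 39.3% of all genes tested. In KO total polysome 0 of 73 rose and 6 fell (8.22%, median 0.0449), beside 0.572% and 5.77%. In KO spermatocytes 8 rose and 13 fell (11% and 17.8%, median -0.00253), beside 19.6% and 17.8%. Kif17, a kinesin of cilia and of spermatids, fell in all 4 sources, with log2 differences of -1.51 in total polysome (adjusted p 0.00363), -0.75 in spermatocytes, -1.01 in round spermatids and -1.05 in Leydig cells. Nme8, an outer arm thioredoxin, also fell in all 4, with -1.21, -0.32, -0.67 and -0.48 in the same order. Wdr34, an intermediate chain of the dynein that drives the return trains of IFT, rose by 1.25 in KO round spermatids (SE 0.096, adjusted p 4.4e-05) and by 0.35 in KO spermatocytes. Its difference of KO effects, total polysome minus round spermatids, was -1.02 (adjusted p 0.0166). Ccdc40, of the molecular ruler of the doublet, rose by 0.87 and Ccdc114, an outer arm docking protein, by 0.85 in KO round spermatids.

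Regulators of ciliary and spermatid genes were the last list, with 15 genes tested in most comparisons. Rfx factors and Foxj1 drive ciliary genes, and Crem with its partner Fhl5 drives spermatid genes. In KO round spermatids 5 of 15 rose and 4 fell (33.3% and 26.7%), beside 41% and 22.4% of all genes tested. Rfx3 fell there (log2 difference -0.70, SE 0.069, adjusted p 0.000121), as did Fhl5 by 0.57 and Crem by 0.45, while Mybl1, a meiotic factor, rose by 0.90, Rfx1 by 0.45, Sox30 by 0.39 and Rfx4 by 0.24. Rfx2 had a log2 difference of 0.021 (adjusted p 0.778). In KO spermatocytes 6 of 15 fell (40%) and 0 rose, beside 17.8% and 19.6% of all genes tested, among them Fhl5 by 0.43, Foxj1 by 0.37, Mybl1 by 0.33 and Crem by 0.32 on the log2 scale. In KO total polysome Fhl5 fell (log2 difference -2.44, SE 0.25, adjusted p 0.000576) and was the only call, and in KO Leydig cells 13 of 15 fell (86.7%, beside 39.3% of all genes tested), with Mybl1 and Rfx2 at -0.55 and -0.54.

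The letters before the start sites were compared for 64 of the 76 genes that RefSeq's GRCm38.p6 promoter table holds, over 250 bases before to 50 after each start. The X-box was in 11 of them, 17.2%, and in 1.49% of 27025 genes of the table. They were Bbs1, Bbs4, Bbs7, Cfap206, Cfap20dc, Cfap298, Dnaaf5, Dnaaf6, Ift22, Ift57 and Tekt4. The half-site GTTGCC, which can lie inside an X-box, was in 21, 32.8%, and in 14.1% of genes. The cAMP response element TGACGTCA was in 2, Dnah6 and Ift57, 3.12%, and in 2.03% of genes. Of the X-box genes 10 were tested in round spermatids, where 4 rose in KO (Bbs4, Cfap298, Dnaaf5 and Ift22), 2 fell (Dnaaf6 and Ift57) and 4 were not called, beside 41% and 22.4% of all genes tested that rose and fell. In WT round spermatids against WT spermatocytes 3 of 11 were higher and 7 lower, beside 36.2% and 51% of all genes tested. The windows below, with the X-box in capitals, show which letters stand at its free positions. In Dnaaf5, Cfap206 and the upstream site of Ift22 the match is on the other strand. As printed these read GTTNCC, NN and GGNNAC in a row. The sites of Dnaaf6, which fell, of Bbs4, which rose, and of Bbs1 and Cfap20dc are not shown. Positions count the first base of the motif relative to the start, on GRCm38.p6: -18 in Dnaaf5 (chr5:139150207-139150234, plus strand), -188 in Cfap298 (chr16:90935014-90935047, minus), -63 and -33 in Ift22 (chr5:136908077-136908110 and chr5:136908107-136908140, plus), -121 in Bbs7 (chr3:36613487-36613520, minus), -23 in Cfap206 (chr4:34730207-34730239, minus) and -160 in Tekt4 (chr17:25471420-25471453, plus). Ift57, the gene that fell most, is shown whole above.
Dnaaf5, rose: actagcgccgGTTCCCTTGGAGACaggc
Cfap298, rose: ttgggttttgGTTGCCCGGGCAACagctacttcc
Ift22, rose, upstream site: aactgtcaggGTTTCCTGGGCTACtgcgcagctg
Ift22, rose, downstream site: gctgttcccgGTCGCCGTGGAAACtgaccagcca
Bbs7, not called: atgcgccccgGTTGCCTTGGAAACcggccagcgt
Cfap206, not called: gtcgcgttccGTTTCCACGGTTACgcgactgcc
Tekt4, not called: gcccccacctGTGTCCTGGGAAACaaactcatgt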

How the data were processed

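RNA of 28 samples was hybridised to single-colour oligonucleotide arrays, and the submitters' processing notes name GCOS, with no version or setting given in the sources used here. The deposited values are linear intensities, 1 per probe set, and samples were grouped by their titles. Of 45101 probe sets, 64 are controls, 34945 carry 1 symbol, 932 several and 9160 none in the platform annotation. 3 further probe sets that name a member with other genes were not used. Here every array was scaled to a trimmed mean of 500 (0.02 trimmed at each end), and log2 of signal plus 16 was fitted for 1 probe set per gene, for genes at or above the median level of the arrays compared (9097). limma 3.58.1 (lmFit and eBayes, R 4.3.3) was run on the groups of each comparison alone, with Benjamini-Hochberg adjustment and a threshold of 0.05. Promoters were read with Python 3.11.15. The code was tested on simulated data. The number of arrays limits the precision.

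The members and gene lists were chosen with earlier results of these data known. Named genes were, per comparison, up to 10 largest rises and falls among called members (5 for differences of effects; where fewer than 3 were called, the 3 with the smallest p), plus tektins and members with disagreeing probe sets. Deviations of same-numbered arrays correlated at 0.41 to 0.632 in total polysome, 0.254 to 0.339 in spermatocytes, 0.142 to 0.22 in round spermatids and 0.189 to 0.246 in the WT cell comparison. The numbers were therefore taken as blocks in an alternative fit, while the main fits used no pairing. The pairing comes from the data, not the labels. Leydig cells (0.0099) and immunoprecipitates (0.418) had 2 pairs only. Alternatives were other scalings, pseudocount 64, no filter, shared fits, replicate blocks, averaged near-identical arrays, deposited values and leaving arrays out.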

Additional observations from a re-analysis of the deposited data

Results flagged for a closer look

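Among 47 groups of 4 arrays tested for a single distant array, 2 were marked, where chance marks about 1 in 20. Ift88 read 2333 on array 2 of KO spermatocytes and 2009 to 2062 on the other 3. Bbs12 read 168.1 on array 2 of WT spermatocytes and 153.7 to 155.7 on the other 3.

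The KO effect differed between round spermatids and spermatocytes, by a test of the difference itself in limma. The difference was 1.31 for Ift46, 1.14 for Dnah2, 0.676 for Dnah8, 0.643 for Rsph6a and 0.628 for Cfap97. It was -0.775 for Ift57, -0.682 for Ift172, -0.558 for Dnah9, -0.509 for Cfap69 and -0.446 for Cfap300. Between total polysome and round spermatids it was -1.37 for Ift46 and -1.02 for Cfap97d1, in a fit that shares the spread of both sources.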

How the results depend on the processing

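Counts of members called by limma moved by over 1.5 times in these settings, and the cause was not tested. In total polysome the count of 2 became 1 with no filter and 14 in 1 fit over all arrays but the IP arrays. It became 8 with the replicate block and 0 on values as deposited. The shares of all genes tested called in these settings were 2.08%, 34.5%, 24.7% and 0%, against 6.34%. Without the 3 arrays of conflicting description 1 WT array was left, and counts of that setting are not given. In spermatocytes the count of 19 became 12 with no filter, 12 with centred arrays and 3 in the shared fit. It became 2 with near-identical arrays averaged, which left 2 values a group. The shares of all genes tested were 17%, 32.2%, 13.6% and 13.5% in the same order, against 37.4%. In Leydig cells 56 became 7 in the shared fit, while the share of all genes tested went from 77.9% to 23.2%. In the immunoprecipitates 0 became 25 in 1 fit over all arrays, while that share went from 0% to 27.8%. The difference between round spermatids and spermatocytes went to 13 in the shared fit and 26 with spermatocyte arrays averaged, against 41. The shares of all genes tested were 18.9% and 30.4%, against 46%. The difference between total polysome and round spermatids went to 1 with no filter, 13 in the shared fit and 9 with the replicate block, against 2. It went to 0 with round spermatid arrays 1 and 2 averaged (chosen after seeing the data) and 0 as deposited. The shares of all genes tested were 0.396%, 17.5%, 15.4%, 0.055% and 0% in the same order, against 2.79%. Leaving out 1 array gave 1 to 3 in total polysome, 14 to 16 in spermatocytes, 38 to 45 in round spermatids, 44 to 50 in Leydig cells, 62 to 64 between WT cells, 37 to 46 and 1 to 5 for the differences, and 0 in each case in the immunoprecipitates, and a group left with 1 array was assumed to vary like the other. The replicate block moved no other count by over 1.5 times. Named members changed direction 7 times where the main fit or the alternative called them. In round spermatids it was Cfap36 under quantile normalization (0.0851). In Leydig cells it was Bbs1 (-0.0308 by quantile normalization, -0.148 centred), and Ift20 (-0.00772), Ift80 (-0.155), Cfap300 (-0.157) and Rsph9 (-0.179) with centred arrays. Changes of sign without a call in either fit are not in this count. Such was Ift88 in total polysome, at 0.37 in the main fit and -0.0331 on values as deposited. Of 300 values of named members in the WT cell comparison, 300 kept direction and side of the threshold, as did 253 of 260 in round spermatids. With 2 arrays a group, the Leydig cell and immunoprecipitate comparisons have the fewest.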
